A study of Drosophila melanogaster with 4 samples.

Results

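The testis of Drosophila melanogaster males mutant for bam was described from its 2 RNA-seq libraries, bam replicate 1 and bam replicate 2, out of 4 libraries in the series. Both libraries came from dissected whole testes of flies carrying the genotype bam-, within 3 days of eclosion, and both were selected with oligo-dT before a directional library kit. The labels name no bam allele, no number of pooled flies and no agent or other mutation in these flies, and the series' text calls the libraries biological replicates. Chosen members were all genes with a value in these libraries, 14664 in all, and 8397 of them (57.3%) had an FPKM of at least 1 in both libraries. FPKM counts sequenced fragments relative to the length of the transcript and to the depth of the library. It is meant to let levels be set side by side between genes of a library. For 1778 genes the value lay above the upper bound of its own deposited interval in both libraries, so their place beside other genes is uncertain. No other genotype is described, so a value here is a level and never a change.

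A fly testis makes sperm from stem cells that sit at its tip against a cluster of somatic hub cells. Daughters of the stem cells divide by mitosis as spermatogonia inside an envelope of somatic cyst cells, and then become spermatocytes, which grow, switch on a large set of testis-specific genes and enter meiosis. The bam gene is needed for spermatogonia to leave the mitotic divisions, and bam mutant testes are known to fill with early germ cells in place of spermatocytes and spermatids. Around the germline lie cyst cells, a muscle sheath and a pigment cell layer, and the testis joins the seminal vesicle, accessory glands and ejaculatory duct. In whole-tissue RNA, fewer cells of a type and less RNA per cell cannot be told apart.

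Summed FPKM was 650127 in replicate 1 and 654783 in replicate 2, with medians over all genes of 3.74 and 3.98. Read depth is unknown. From the spacing of the lowest values, replicate 2 had an estimated 1.23 times the depth of replicate 1, an estimate that held for 22.8% of 740 low genes. Values joined by "and" are those of replicate 1 and then replicate 2.

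Levels agreed closely between the libraries for most genes. Over the 8397 genes at an FPKM of at least 1 in both, Pearson's r of log2(FPKM + 1) was 0.98. It was taken across genes, which are not independent replicates. On the same scale 97.1% of these genes lay within 1.5-fold, and the added 1 narrows the fold of low genes. Genes of the accessory gland, which makes seminal fluid and is attached to the testis, stood apart. An FPKM of at least 1 was reached by 5 of 17 accessory gland genes in replicate 1 and by 16 of 17 in replicate 2, and their values summed to 30.4 and 2547 FPKM. The peptide Acp95EF had 18.6 and 1095 FPKM, and the sex peptide SP was listed at 0 and had 124 FPKM. Acp98AB, in a locus of 156 bp, was listed at 0 and had 347 FPKM, and Acp63F was listed at 0 and had 121 FPKM. All 4 were thus far higher in replicate 2. Acp53Ea had 1.62 and 109 FPKM, Acp26Aa had 1.44 and 59.8 FPKM, and Acp36DE had 2.09 and 129 FPKM in a locus inside that of Fas3. Mst57Db had 0.618 and 177 FPKM, Mst57Da had 2.81 and 149 FPKM, and Acp62F had 0.825 and 100.4 FPKM. Replicate 2 was thus the higher library for 16 of the 17 genes, and Acp24A4, at 0.326 FPKM and a listed 0, was the exception. The transcription factor prd, which accessory glands need, had 0.0641 and 2.74 FPKM. The part of this tissue in any other result was not tested.

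**Figure D1:**
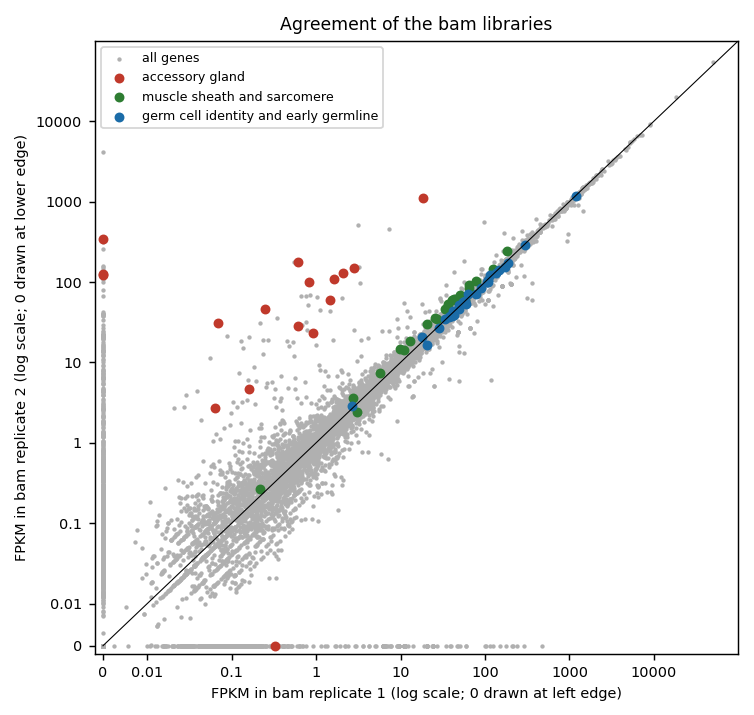
FPKM of each of the 14664 genes in bam replicate 1 (horizontal, log scale) against bam replicate 2 (vertical, log scale), with 3 gene lists in colour and the line of equal values; genes listed at 0 are drawn at the edges. Germ cell genes lie on the line, muscle genes slightly above it, and 16 of 17 accessory gland genes above it, up to 1095 FPKM in replicate 2.

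The muscle list also leaned to replicate 2, with 20 of 21 genes higher there and sums of 896 and 1179 FPKM, and so did 10 of 12 fat body genes, with sums of 37.7 and 55.4 FPKM. Gut genes leaned the other way, with 2 of 17 higher in replicate 2 and sums of 167 and 129 FPKM. Among 5572 genes of at least 200 bp with a mean of 10 FPKM or higher and a value above 0 in both libraries, 43 (0.772%) were more than 2-fold apart on the log2(FPKM + 1) scale. All 43 were higher in replicate 2, and 15 of them carried Acp, Sfp or Mst57D names. The other 28 were not sorted by tissue and may include further accessory gland genes. The largest gap by that scale was that of CG42481, at 3.12 and 505 FPKM, followed by CG9029, at 0.553 and 179 FPKM. Chosen after their values were seen, the heat shock genes Hsp22, at 9.19 and 34.6 FPKM, and Hsp68, at 34.9 and 92.3 FPKM, and the X-chromosome counting gene sisA, at 10.9 and 54.8 FPKM, were also in this set.

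An exact 0 was not always a low level. The RNA-binding protein gene larp was listed at 0 in replicate 1 and had 154 FPKM in replicate 2, while the threonyl-tRNA synthetase ThrRS had 124 FPKM in replicate 1 and was listed at 0 in replicate 2. Sec31, a coat protein of secretory vesicles, had 46.4 FPKM and was listed at 0 in replicate 2. Among loci of at least 200 bp, 14 genes whose mean was 10 FPKM or higher were listed at 0 in 1 library. A 0 is therefore reported below as listed at 0 and not as a lack of transcript.

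The levels fell into a wide range. In replicate 1, 8650 genes (59.0%) reached 1 FPKM, and in replicate 2, 8763 genes (59.8%) did; 253 genes did so in replicate 1 only and 366 in replicate 2 only. An FPKM of at least 10 in both libraries was held by 5520 genes, at least 100 by 681 and at least 1000 by 111. At the low end, 2291 genes (15.6%) were listed at 0 in both, and a further 3357 stayed under 1 in both with a value above 0 in at least 1 of them. Of 13357 protein-coding genes, 7967 (59.6%) reached 1 FPKM in both. Few genes held much of the total: the summed FPKM of each library reached 50% with its top 113 genes in replicate 1 and its top 111 in replicate 2.

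The single highest value of both libraries was that of CG18628, a short protein-coding locus on chromosome arm 3L (dm3, 10632871 to 10633236, 366 bp), with 50450 and 53823 FPKM. It alone made up 7.76% and 8.22% of the summed FPKM. These values stood above the upper bounds of the intervals that the authors deposited beside them, 17218 and 18350 FPKM, and the same was true in both libraries for 1778 genes. Second was the metallothionein MtnA (3R, 5609487 to 5610093), a small metal-binding protein, with 18185 and 19733 FPKM against upper bounds of 7524 and 8142 FPKM. The order of these genes at the top holds in both libraries, while the size of their lead rests on values outside their own intervals.

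Of the 25 most abundant genes of at least 200 bp, which held 28.3% of the summed FPKM, 17 were CR-numbered loci on the unplaced scaffold U of dm3. The highest of these, CR41617 and CR40712, had 9103 and 9157 FPKM and 8921 and 8947 FPKM, and the other 15 lay between 3055 and 6918 FPKM. Scaffold U holds 150 genes in the tables, 97 of them at 1 FPKM or more in both libraries, and 18.2% and 17.8% of the summed FPKM. The tables give these loci no gene class, and 5 genes of the scaffold are named as ribosomal RNA. Both copies of 7SL RNA, the RNA of the signal recognition particle, were listed at nearly equal levels, at 3433 and 3342 FPKM for 7SLRNA:CR32864 and 3431 and 3338 FPKM for 7SLRNA:CR42652; reads of such near-identical copies cannot be assigned with certainty.

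Among genes with a name, transcripts for making protein led. Of the 25 most abundant named genes, 15 encode ribosomal proteins, and ribosomal protein genes together held 18.8% and 18.2% of the summed FPKM. Of 92 cytoplasmic ribosomal protein genes 89 reached 1 FPKM in both libraries, with a median of 1338 FPKM, and RpL41 was the highest at 7163 and 6796 FPKM in a locus inside that of NaCP60E. RpL29 had 2877 and 3208 FPKM. Both genes stood above the upper bounds of their intervals, 2630 and 2484 FPKM for RpL41 and 1097 and 1220 FPKM for RpL29. Ef1alpha48D, the elongation factor that brings tRNA to the ribosome, was the next named protein-coding gene after MtnA and RpL41, at 4867 and 4765 FPKM. It lay below its upper bounds of 4985 and 4879 FPKM, so its place after RpL41 rests on RpL41 values outside their own intervals. Rack1, a ribosome-bound scaffold, had 1438 and 1420 FPKM, the elongation factor eEF2 had 1262 and 1222 FPKM, and the initiation helicase eIF4A had 952 and 955 FPKM. The poly(A)-binding protein pAbp had 1210.2 and 1187 FPKM.

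**Figure D2:**
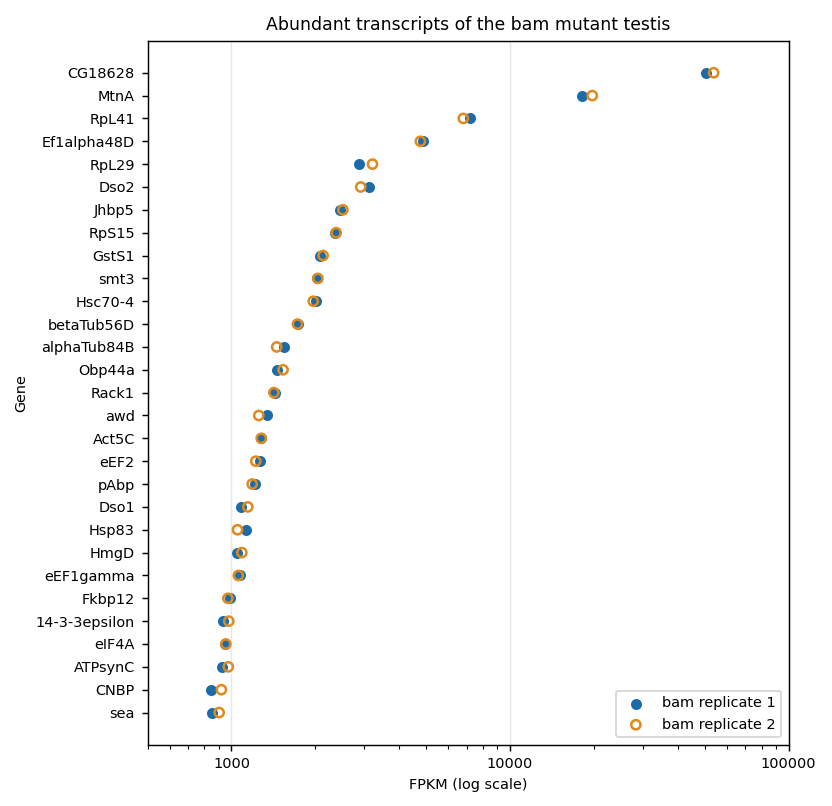
FPKM (horizontal, log scale) of CG18628, 3 ribosomal protein genes and the 25 most abundant named genes that are not ribosomal, 7SL or 18S RNA loci, with 1 point per library. The libraries nearly coincide for each gene, and CG18628 and MtnA stand apart from the rest at 18185 FPKM or more.

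The other abundant named genes served a wide set of roles. The chaperone Hsc70-4 had 2015 and 1966 FPKM and the chaperone Hsp83 had 1129 and 1051 FPKM. Cytoskeletal genes were led by the tubulins betaTub56D, at 1736 and 1726 FPKM, and alphaTub84B, at 1545 and 1454 FPKM, and by the actin Act5C, at 1275 and 1279 FPKM. The SUMO gene smt3 had 2026 and 2043 FPKM, the nucleoside diphosphate kinase awd had 1341 and 1254 FPKM, and the chromatin protein HmgD had 1051 and 1089.8 FPKM. These are genes that most cells use.

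Some secreted or detoxifying products ranked as high. Jhbp5, named as a juvenile hormone binding protein, had 2446 and 2512 FPKM, and its neighbour Jhbp4, whose locus overlaps it by 86 bp, was listed at 0 in both libraries. The glutathione transferase GstS1 had 2087 and 2133 FPKM, and the odorant-binding protein Obp44a had 1455 and 1532 FPKM. The immune-induced peptides Dso2, at 3119 and 2911 FPKM, and Dso1, at 1079 and 1145 FPKM, lie next to each other on 2R; the locus of Dso2 spans 205 bp and its upper bounds were 193 and 179.7 FPKM. The highest uncharacterised genes after CG18628 were CG4068, at 1290 and 1191 FPKM, and CG6770, at 484 and 512 FPKM. Genes named here beyond the 25 highest were chosen after their values were seen.

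Early germline genes were nearly all listed. Of 83 genes in the lists of germ cell identity, piRNA pathway and cell cycle, 80 reached 1 FPKM in both libraries, with a median of 45.9 FPKM. Over all genes the same threshold was passed by 57.3% with a median of 4.04 FPKM, and over protein-coding genes by 59.6% with a median of 4.83 FPKM. The cell cycle list, with 32 genes, holds no gene defining for germ cells, so the pooled values are not those of germ cells alone. All 28 measured genes of germ cell identity passed, with a median of 57.4 FPKM.

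The helicase vas, a defining germ cell gene, had 188 and 173 FPKM. The translational repressor nanos had 136 and 129 FPKM, the germline gap junction protein zpg had 90.0 and 84.7 FPKM, and the germline transcription factor ovo had 49.9 and 51.8 FPKM. All of these lay far above the threshold in both libraries. Loci overlap for vas with vig, and the whole zpg locus lies within that of CG8368, so reads from such pairs may not be assigned with certainty. In 5080 genes (34.6%) the locus overlaps that of another gene.

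The transcript of the mutated gene itself was listed. The bam gene had 28.6 and 26.5 FPKM, a level that checks no label here because the allele is not given and no control without the mutation is described. Its partner genes were listed at like levels: bgcn had 48.9 and 45.8 FPKM, and tut had 20.9 and 16.5 FPKM. The translational regulator mei-P26, which acts with bam, had 38.8 and 38.2 FPKM. The mutated gene and these partners thus all stood at 16.5 FPKM or more in both libraries. Phf7, a PHD finger gene of male germline identity, had 173 and 152 FPKM. The transcription factor chinmo had 43.1 and 39.3 FPKM. The lowest of the list was esg, a factor of hub and stem cells, at 2.70 and 2.89 FPKM. The highest, pAbp and the transcription factor lola (296 and 287 FPKM), are used by many cells.

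Of 26 genes of the piRNA pathway, which silences transposons in germ cells, 23 passed in both libraries, with a median of 38.1 FPKM. The Argonaute proteins were all listed, aub at 108 and 105 FPKM, piwi at 78.6 and 80.1 FPKM and AGO3 at 59.1 and 53.9 FPKM. The cochaperone shu had 80.8 and 79.8 FPKM. The nuclear cluster factors rhi, at 41.5 and 38.8 FPKM, and del, at 38.4 and 37.5 FPKM, lay near the middle of the list. Cytoplasmic and nuclear parts of the pathway were thus both listed. Low in the list was moon, a factor of piRNA cluster transcription, at 5.07 and 5.6 FPKM. The soma-linked factor fs(1)Yb had 11.5 and 11.8 FPKM.

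The 3 piRNA genes that did not pass were each listed at 0. For papi this was so in replicate 1 only, with 33.7 FPKM in replicate 2. Both squ and cuff were listed at 0 in both libraries, and their loci overlap those of grp (by 1389 bp, the whole of squ) and ERp60 (by 36 bp). The host grp had 98.0 and 85.4 FPKM.

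All 32 genes of the cell cycle and DNA replication passed, with a median of 46.2 FPKM. The replication clamp PCNA led at 313 and 286 FPKM, followed by the replication licensing inhibitor geminin at 119.7 and 108 FPKM, the mitotic kinase polo at 109 and 101 FPKM and the ribonucleotide reductase subunit RnrS at 99.3 and 90.6 FPKM. The mitotic cyclins CycA and CycB had 74.0 and 66.9 FPKM and 62.1 and 59.2 FPKM. The Mcm helicase subunits Mcm2, Mcm3, Mcm5, Mcm6 and Mcm7 lay between 29.8 and 51.1 FPKM. Genes of DNA replication and of mitosis were thus both listed well above the threshold. The Cdc25 phosphatase stg, which triggers mitosis, had 27.7 and 28.2 FPKM. The lowest was rap, the Fizzy-related activator of cyclin breakdown, at 9.90 and 11.2 FPKM. In this list 5 of 32 genes were higher in replicate 2, against 20 of 21 in the muscle list.

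Later germline lists differed in how many of their genes passed. Of 132 genes in the lists of meiosis, spermatocyte regulation, spermatid differentiation, testis-specific proteasome, cup and comet genes, axoneme and Y-linked fertility, 53 passed in both libraries, which is 40.2% against 57.3% of all genes. Their median was 0.254 FPKM, and 31 were listed at 0 in both. The share that passed was highest for meiosis, with 16 of 17, and lowest for the Y-linked genes, with 0 of 8.

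Of 17 genes of meiotic recombination and chromosome pairing, 16 passed, with a median of 8.45 FPKM. The cohesion protein ord had 79.4 and 76.2 FPKM, the synaptonemal complex protein c(3)G had 43.5 and 45.0 FPKM, and the autosome pairing factor tef had 20.9 and 20.7 FPKM in a locus inside that of fat-spondin, which had 5.70 and 5.90 FPKM. The meiotic spindle kinesin sub had 17.7 and 16.7 FPKM, and the recombinase spn-A had 17.1 and 14.8 FPKM. Male flies do not recombine, and several of these proteins are known from the female germline. The exception was mei-W68, listed at 0 in both libraries, whose whole locus lies within that of par-1, at 70.1 and 68.4 FPKM.

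Of 25 spermatocyte regulators 17 passed with a median of 5.65 FPKM. The testis initiation factor eIF4G2 led at 212 and 216 FPKM, in a locus inside that of CG33111, which was listed at 0. The RNA-binding protein blanks had 156 and 138 FPKM, the testis form of a TFIIA subunit TfIIA-S-2 had 66.0 and 64.6 FPKM, and the testis cap-binding protein eIF4E-3 had 54.2 and 47.0 FPKM. The meiotic translation regulator bol had 30.2 and 34.3 FPKM. All but bol of these 5 genes, known from spermatocytes, lay above 45.9 FPKM, the median of the early germline lists. The median of their own list was 5.65 FPKM, and 10 of its 25 genes had 10 FPKM or more in both libraries.

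The defining regulators of the spermatocyte programme divided into those listed and those near 0. The meiotic Cdc25 phosphatase twe had 17.4 FPKM in both libraries. Of the meiotic arrest genes, aly had 8.49 and 7.64 FPKM and topi had 3.04 and 2.64 FPKM, whereas comr was listed at 0 and had 0.0207 FPKM; the products of these genes act in 1 chromatin complex. Of the testis forms of TFIID subunits, Taf12L had 26.3 and 22.1 FPKM and mia had 8.40 and 8.16 FPKM. Lower were nht, at 3.96 and 4.23 FPKM, can, at 0.264 and 0.161 FPKM, and sa, listed at 0 and at 0.119 FPKM. The testis form tomb, paired with mip120 in the comparison below, had 24.2 and 20.8 FPKM. The RNA-binding protein Rbp4 had 2.97 and 2.51 FPKM. Members of 1 complex were therefore listed at very different levels in the same libraries. The bromodomain genes tbrd-2 and tbrd-3 were listed at 0 in both, and tbrd-1 had 3.54 and 2.81 FPKM.

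Of 14 testis-specific proteasome genes 3 passed, and all 3 are paralogues of ATPases of the regulatory cap: Rpt4R had 61.0 and 52.4 FPKM, Rpt3R had 32.6 and 29.7 FPKM, and Rpt6R had 2.70 and 2.36 FPKM. The testis forms of the core subunits were lower, the highest being Prosbeta2R2 at 0.878 and 0.788 FPKM, and 5 genes of the list were listed at 0 in both libraries. The median of the list was 0.0390 FPKM.

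Genes of spermatid differentiation and sperm chromatin had the lowest median of any list but the Y-linked genes. Of 32 genes 6 passed and 15 were listed at 0 in both libraries, with a median of 0.0349 FPKM. The protamine genes ProtA and ProtB were listed at 0 in both libraries, and the sperm chromatin gene Mst77F had 0.975 and 0.398 FPKM. The testis beta-tubulin betaTub85D, the major tubulin of spermatocytes and sperm tails, had 0.122 and 0.111 FPKM. These 4 defining genes of sperm were thus below 1 FPKM in both libraries. The mitofusin of spermatids fzo had 1.01 FPKM in both libraries, in a locus inside that of cnc at 59.4 and 60.4 FPKM. The sperm tail gene dj was listed at 0 and had 0.121 FPKM. The highest values of the list were those of gdl, at 7.51 and 7.54 FPKM, of the sperm tail gene Mst87F, at 3.17 and 2.59 FPKM, of Mst36Fa, at 2.43 and 2.15 FPKM, and of Mst36Fb, at 2.21 and 1.31 FPKM.

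Of 15 cup and comet genes, which are transcribed after meiosis, 2 passed: m-cup had 14.3 and 13.2 FPKM, and r-cup had 1.03 and 1.15 FPKM. Next were s-cup, at 0.255 and 0.416 FPKM, and t-cup, at 0.0883 and 0.432 FPKM. The median of that list was 0.0505 FPKM. Of 21 genes of the axoneme and ciliary transport 9 (42.9%, against 57.3% of all genes) passed. They were led by the transport proteins Oseg1, at 6.76 and 7.54 FPKM, rempA, at 6.17 and 5.94 FPKM, and Oseg5, at 6.11 and 5.5 FPKM. The dynein heavy chain Dhc36C followed, at 4.24 and 3.93 FPKM. Of the 8 measured Y-linked fertility genes none passed in either library. The axonemal dynein genes kl-2, kl-3 and kl-5 lay between 0.00535 and 0.0131 FPKM, and the highest value of the list was 0.0946 FPKM for Ppr-Y in replicate 2. ARY, Pp1-Y2 and ORY were listed at 0 in replicate 1 and had 0.0781, 0.0551 and 0.0264 FPKM in replicate 2.

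**Figure D3:**
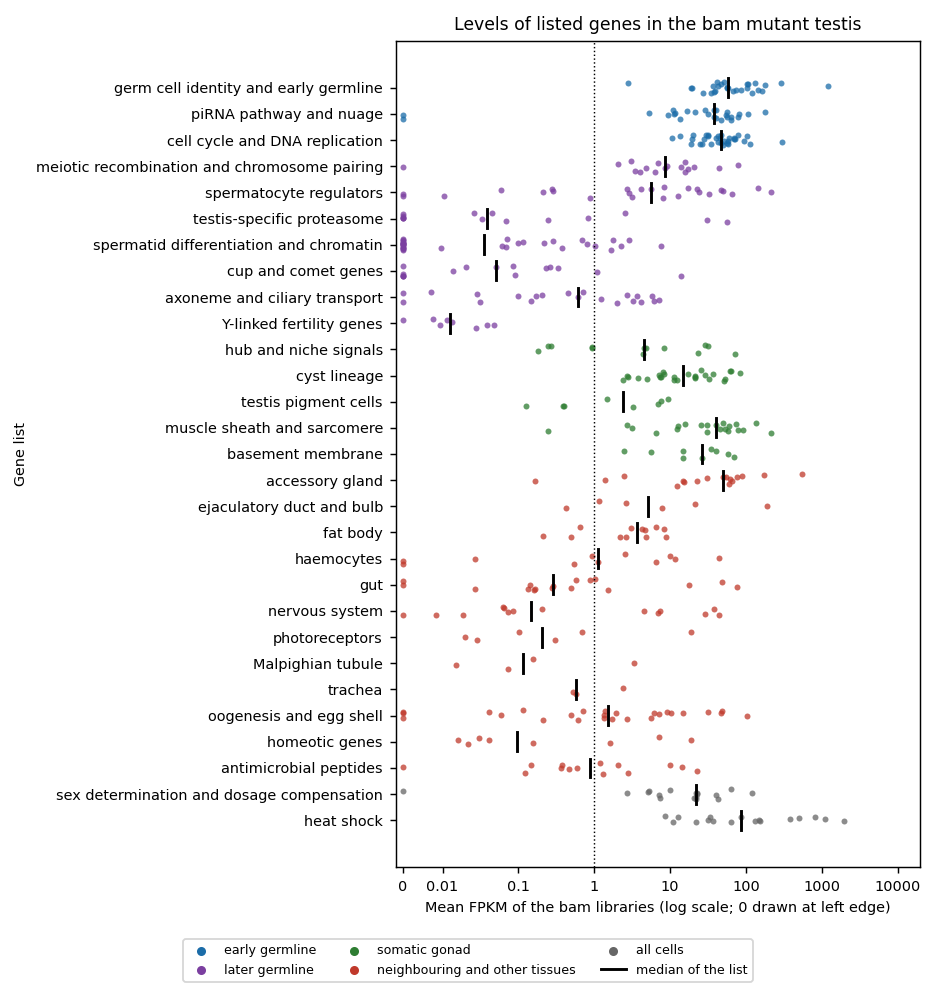
Mean FPKM over both bam libraries (horizontal, log scale; 0 at the left edge) of each gene of 29 lists, with 1 point per gene, colours for the class of list, black bars for list medians and a dotted line at 1 FPKM. Early germline lists lie at medians of 38.1 to 57.4 FPKM, and spermatid, cup and comet, testis proteasome and Y-linked lists at medians of 0.0124 to 0.0505 FPKM; the accessory gland mean rests on replicate 2.

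Many testis-specific proteins have a paralogue used by most cells. Set side by side were 37 pairs of a gene listed as a testis form and a gene listed as its general form. Whether each testis form is limited to the testis was not tested. The general form was at 1 FPKM or more in both libraries in all 37 pairs, with means of 10.5 to 1920.1 FPKM. The testis form passed in 20 of the 37, reached 10 FPKM in 14 and was listed at 0 in both libraries in 8. The median log2 ratio of testis form over general form, from FPKM + 1, was -3.67, and it was -3.69 in replicate 1 and -3.65 in replicate 2.

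The testis form was the higher of the pair in 3 cases. RpL22-like had 855 and 766 FPKM against 261 and 279 FPKM for RpL22, a log2 ratio of 1.58, and all of these values lay above the upper bounds of their intervals. eIF4G2 had 212 and 216 FPKM against 130.3 FPKM in both libraries for eIF4G1, a log2 ratio of 0.71. RpL37-2 had 1537 and 1528 FPKM against 999.97 and 978 FPKM for RpL37-1, a log2 ratio of 0.63. Its locus spans 270 bp, and its upper bounds were 454 and 451 FPKM, below the values of RpL37-1. RpL37-1 also lay above its interval, so the order of this pair is uncertain. In each of the 3 pairs the testis form was higher in both libraries.

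Other ribosomal pairs had an abundant testis form below the general one. RpS5b had 918 and 833 FPKM against 1113 and 1087 FPKM for RpS5a. RpS19b had 311 and 285 FPKM against 1720 and 1688 FPKM for RpS19a, and RpS10a had 217.6 and 195 FPKM against 1018 and 1028 FPKM for RpS10b. Of the 7 ribosomal pairs 5 thus had a testis form of 194.7 FPKM or more, while RpL10Aa and RpS28a were listed at 0 in both libraries beside 871 and 1920.1 FPKM on average for RpL10Ab and RpS28b.

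The lowest log2 ratios belonged to pairs of several kinds. They were -10.91 for RpS28a over RpS28b, -10.60 for betaTub85D over betaTub56D, -9.77 for RpL10Aa over RpL10Ab, -9.09 for Acam over Cam and -8.58 for the nuclear transport GTPase paralogue Ran-like over Ran. The first of these ratios is uncertain, because the locus of RpS28a spans only 195 bp. The core proteasome forms Prosalpha6T, Prosalpha3T and Prosbeta2R1 had ratios of -7.49 to -7.31. Where a testis form is at or near 0, the ratio follows the level of the general form. Pglym87, also listed at 0 in both libraries, had a ratio of -5.58 beside a mean of 46.9 FPKM for Pglym78. The order of these pairs therefore does not rank their testis forms. The calmodulin paralogue Acam had 0.295 and 0.269 FPKM against 680 and 716 FPKM for Cam. Porin2, a mitochondrial channel of the male germline, had 0.537 and 0.996 FPKM against 445 and 462 FPKM for porin, and the testis cytochrome c gene Cyt-c-d had 1.94 and 1.34 FPKM against 371 and 391 FPKM for Cyt-c-p.

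**Figure D4:**
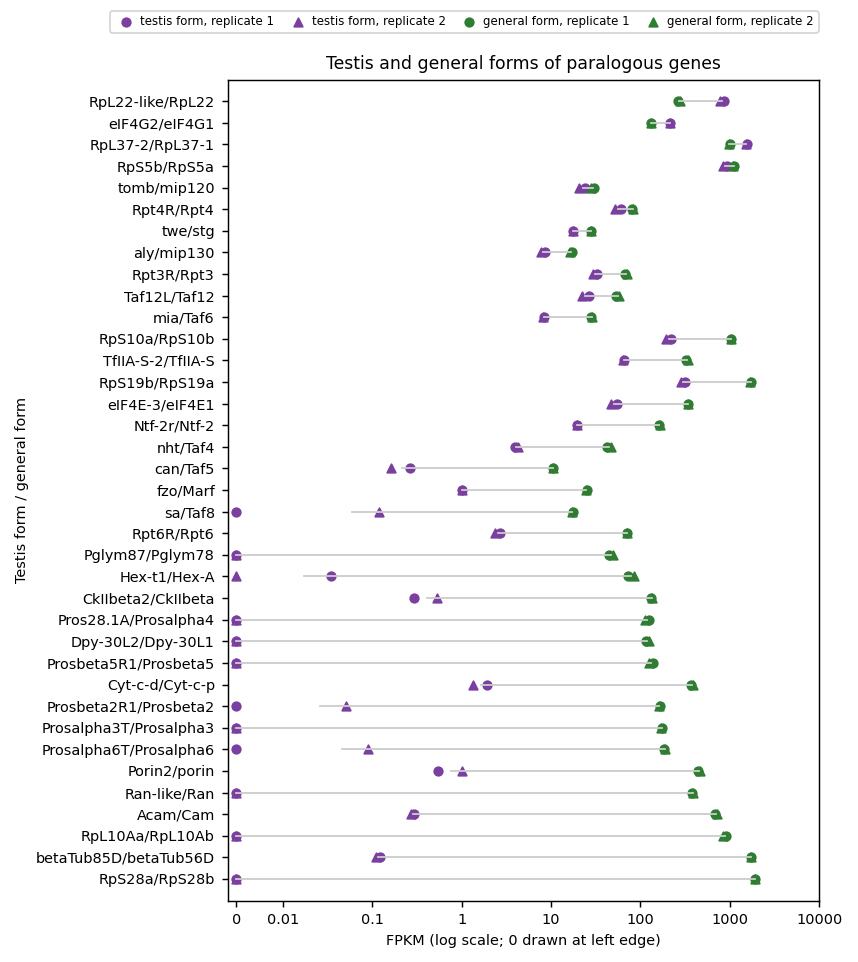
FPKM (horizontal, log scale; 0 at the left edge) of the testis form (purple) and the general form (green) of 37 paralogous pairs in each bam library (circles and triangles), ordered by log2 ratio; grey lines join the means of the forms. The testis form is higher in 3 pairs at the top, and the general form lies between 10.5 and 1920.1 FPKM on average in all.

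The respiratory chain gave a like split, chosen after the values were seen. Of 81 genes of the respiratory chain and ATP synthase, 19 have a name that adds L, or L and a digit, to the name of another subunit; the names of ND-MNLL and ND-MLRQ are not of this kind. Of those 19 genes 4 passed, with a median of 0.199 FPKM, and of the other 62 genes 60 passed, with a median of 108 FPKM. Exceptions among the L-named genes were ATPsynepsilonL, at 293 and 245 FPKM, and Cyt-c1L, at 22.8 and 21.6 FPKM. The highest gene of the family was ATPsynC, the membrane ring subunit of ATP synthase, at 926 and 974 FPKM, followed by COX7A at 445 and 423 FPKM.

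Somatic gonad genes were mostly listed, with a lower pooled median than early germline genes. Of 77 genes of hub, cyst lineage, pigment cells, muscle sheath and basement membrane, 68 (88.3%, against 57.3% of all genes) passed in both libraries, with a median of 14.8 FPKM, against 45.9 FPKM for the early germline lists. The early germline lists include the cell cycle genes. By list, somatic medians ran from 2.38 FPKM for pigment cells to 40.2 FPKM for muscle, above the 38.1 FPKM of the piRNA list. All 26 genes of the cyst lineage passed, with a median of 14.8 FPKM. The early cyst cell factor zfh1 had 20.9 and 21.3 FPKM, and tj had 7.70 and 9.16 FPKM. The later cyst cell factor eya had 12.1 and 12.4 FPKM, its partner so had 2.50 and 3.10 FPKM, and the Hedgehog receptor ptc had 2.35 and 2.39 FPKM. Factors known from early and from late cyst cells were thus both listed. The highest of the list, bnb at 77.4 and 91.2 FPKM, scrib at 64.9 and 63.8 FPKM the EGF receptor ligand Krn at 62.4 and 60.4 FPKM and the adhesion protein Nrg at 51.2 and 53.7 FPKM, may come from other cells as well, which was not tested.

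Of 13 hub and niche signal genes 8 (61.5%) passed, near the 57.3% of all genes, with a median of 4.49 FPKM. The JAK-STAT ligand upd1, made by hub cells, had 0.258 and 0.276 FPKM, below the threshold in both libraries, and its receptor dome, listed with the cyst lineage, had 31.6 and 33.3 FPKM. The adhesion protein Fas3 had 30.4 and 33.6 FPKM, the E-cadherin shg had 28.5 and 29.5 FPKM, and hh had 4.58 and 4.40 FPKM. The hub label thus rests on Fas3 and hh, genes that other cells also use. The BMP ligands gbb and dpp had 22.6 and 24.3 FPKM and 4.67 and 4.86 FPKM. The EGF ligand spi, which germ cells send to cyst cells, was the highest at 72.7 and 71.7 FPKM.

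Of 8 pigment cell genes 5 (62.5%) passed, near the 57.3% of all genes. The factor Sox100B had 7.27 and 8.07 FPKM, and the signal Wnt2 had 8.76 and 9.93 FPKM. The pigment transporters bw and w had 6.08 and 7.66 FPKM and 3.34 and 3.24 FPKM. The pigment transporter st had 0.117 and 0.133 FPKM. All 9 basement membrane genes passed, led by the collagen IV chain Col4a1 at 62.0 and 77.0 FPKM the collagen-binding protein SPARC at 55.4 and 59.4 FPKM, the other collagen IV chain vkg at 35.7 and 45.5 FPKM and the laminin chain LanB1 at 34.4 and 35.3 FPKM.

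Of 21 muscle genes 20 passed, with a median of 40.2 FPKM, and this was the highest list of the somatic gonad. The actin Act57B had 181 and 244 FPKM, the tropomyosin Tm1 had 125 and 143 FPKM, the actin Act87E had 79.1 and 103 FPKM, and the myosin light chain Mlc1 had 64.7 and 92.1 FPKM. The myosin heavy chain Mhc had 40.7 and 60.3 FPKM, and the myosin light chain Mlc2 had 50.5 and 68.2 FPKM. The troponin T gene up had 43.5 and 61.7 FPKM, and the muscle transcription factor Mef2 had 11.1 and 14.2 FPKM. All 5 defining genes were higher in replicate 2, by a smaller factor than the accessory gland genes were. Muscle of attached ducts and glands would be listed in the same genes, and its part was not tested.

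Neighbouring and other tissues gave a mixed set. Of 138 genes 59 (42.8%) passed in both libraries, with a median of 1.36 FPKM; without the accessory gland list it was 54 of 121 (44.6%), with a median of 0.939 FPKM. By library, 66 of the 138 reached 1 FPKM in replicate 1 and 73 in replicate 2, and without the accessory gland 61 and 57 of 121 did. These pooled shares lie below the 57.3% of all genes, and most lists held a few genes that many cells use.

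Of the reproductive tract, 4 of 6 genes of the ejaculatory duct and bulb passed (66.7%, against 57.3% of all genes). EbpIII, a protein named for the ejaculatory bulb, had 205 and 179.8 FPKM, but its relatives Ebp, at 2.0 and 0.300 FPKM, and EbpII, at 0.599 and 0.244 FPKM, were low. The duct peptide Dup99B had 3.42 and 12.03 FPKM, the esterase Est-6 had 20.9 and 21.5 FPKM, and the glucose dehydrogenase Gld had 2.43 and 2.76 FPKM.

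Fat body genes were listed low, with 9 of 12 at 1 FPKM or more in both libraries and none at 10 or more. The larval serum protein Lsp2 had 2.38 and 7.12 FPKM, the lipoprotein apolpp had 5.98 and 7.21 FPKM, and the yolk protein Yp1, a female fat body product, had 0.266 and 0.162 FPKM. Of the other defining genes, Fbp1 had 1.78 and 3.50 FPKM and Lsp1alpha had 0.464 and 0.527 FPKM. Yp3 was the highest at 7.94 and 9.59 FPKM, next to the transferrin Tsf1 at 7.95 and 8.68 FPKM. Of 11 haemocyte genes 5 (45.5%, against 57.3% of all genes) passed. The scavenger receptor crq had 44.0 and 43.8 FPKM, and the transcription factor ush had 11.8 and 11.5 FPKM. The GATA factor srp had 6.25 and 6.98 FPKM, the peroxidasin Pxn had 8.94 and 11.2 FPKM, and Hml had 3.14 and 1.89 FPKM. The haemocyte receptors NimC1, at 1.11 and 0.766 FPKM, and eater, at 0.553 and 0.524 FPKM, lay near or below the threshold, and He was listed at 0.

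Of 17 gut genes 4 (23.5%, against 57.3% of all genes) passed. Amy-p had 86.4 and 65.3 FPKM and Amy-d had 55.0 and 42.8 FPKM; these are near-identical copies, so their separate values are uncertain. The other genes that passed were the myosin Myo31DF, at 17.7 and 17.6 FPKM, and the POU factor nub, at 1.42 and 1.57 FPKM, neither of them a digestive enzyme. The gut proteases alphaTry, at 1.64 and 0.414 FPKM, betaTry, at 1.53 and 0.230 FPKM, and Jon25Bi, at 0.206 and 0.112 FPKM, and the maltase Mal-A1, at 0.472 and 0.0921 FPKM, were all lower in replicate 2. Of 27 Jonah and trypsin genes none reached 1 FPKM in both libraries, against 57.3% of all genes. The amylases were thus the only digestive enzymes of the list at 1 FPKM or more in both libraries.

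Of 14 genes of the nervous system 6 (42.9%, against 57.3% of all genes) passed. The highest were the glutamine synthetase Gs2, at 37.9 and 50.2 FPKM, the sodium pump subunit nrv2, at 36.4 and 40.01 FPKM, and the receptor moody, known from the glial blood-brain barrier, at 26.5 and 30.4 FPKM. The neuronal factor elav had 3.94 and 5.07 FPKM in a locus that lies within that of arg, a gene listed at 0, and the synaptic vesicle protein nSyb had 6.95 and 7.77 FPKM. The active zone protein brp had 0.142 and 0.273 FPKM, and the glial factor repo was listed at 0 in both libraries. Genes for photoreceptors (1 of 6), Malpighian tubules (1 of 4) and trachea (1 of 3) were nearly all under 1 FPKM. The phospholipase norpA, best known from phototransduction, was the 1 photoreceptor gene, at 19.4 and 18.3 FPKM, while the rhodopsin ninaE had 0.586 and 0.797 FPKM and the arrestin Arr1 had 0.402 and 0.209 FPKM, and Arr2 had 0.0679 and 0.138 FPKM. The 1 tubule gene was the exchanger Nha1, at 3.25 and 3.46 FPKM, and CapaR, Uro and Lkr were at 0.227 FPKM or less in both libraries. The 1 tracheal gene was the FGF bnl, at 2.64 and 2.19 FPKM, and its receptor btl, at 0.594 and 0.542 FPKM, and the factor trh, at 0.623 and 0.413 FPKM, were below the threshold.

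Of 26 genes named for oogenesis 15 (57.7%) passed, near the 57.3% of all genes, with a median of 1.54 FPKM. The highest were not eggshell genes: enc had 101 and 107 FPKM, the RNA regulator orb had 49.0 and 48.9 FPKM, the RNA-binding protein stau had 45.1 and 49.6 FPKM, and gnu had 34.1 and 28.4 FPKM. The dorsoventral signal grk had 6.65 and 7.67 FPKM, and the yolk receptor yl had 6.21 and 6.25 FPKM. Below 1 FPKM in at least 1 library were the other defining genes: osk had 0.119 and 0.111 FPKM, bcd had 0.972 and 1.76 FPKM, and of the eggshell genes Cp36 had 0.557 and 0.682 FPKM and Vm26Aa was listed at 0 and had 0.423 FPKM.

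Of 8 homeotic genes 3 (37.5%, against 57.3% of all genes) passed. These were abd-A at 19.1 and 19.2 FPKM, Abd-B at 6.97 and 7.44 FPKM and Antp at 1.46 and 1.72 FPKM. Next was Ubx, at 0.175 and 0.132 FPKM, and the head gene Dfd had 0.0179 and 0.0146 FPKM. Of 14 antimicrobial peptide genes 5 (35.7%, against 57.3% of all genes) passed. They were led by Mtk at 27.2 and 18.3 FPKM and AttC at 14.7 and 14.3 FPKM. Next were Drs at 9.48 and 10.3 FPKM and CecA1 at 2.43 and 3.21 FPKM. Mtk lies in a locus of 271 bp and above its interval.

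Of 17 genes of sex determination and dosage compensation 16 (94.1%, against 57.3% of all genes) passed, with a median of 21.7 FPKM. The roX1 RNA of the male dosage compensation complex had 59.1 and 66.5 FPKM, the splicing factor snf had 116 and 122 FPKM, fl(2)d had 44.0 and 42.5 FPKM, and the female switch gene Sxl, which is also transcribed in males, had 37.9 and 42.3 FPKM. Values per gene do not tell the sex-specific splice forms apart. The male-specific complex gene msl-2 had 5.0 and 5.64 FPKM, and dsx had 7.67 and 7.27 FPKM. The splicing regulator tra was listed at 0 in both, in a locus that overlaps that of l(3)73Ah. All 17 heat shock genes passed, with Hsp27 at 774 and 837 FPKM and Hsp26 at 397 and 599 FPKM as the highest of the small ones.

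Gene families were counted in the same way, beside the 57.3% of all genes that passed. Of 73 mitochondrial ribosomal protein genes 71 (97.3%) passed, with a median of 38.5 FPKM led by mRpL12 at 108 and 107 FPKM and mRpL13 at 94.9 and 92.4 FPKM. Of 33 aminoacyl-tRNA synthetase genes 31 (93.9%) passed, with a median of 35.0 FPKM, led by AspRS at 80.3 and 75.3 FPKM and HisRS at 70.2 and 67.0 FPKM. Of 41 initiation factor genes 36 (87.8%) passed, with eIF4E1, at 341 and 342 FPKM, next to eIF4A. Of 47 proteasome genes 36 (76.6%) passed, led by Prosbeta6 at 222 and 209.8 FPKM and Prosalpha6 at 183 and 189 FPKM; this family includes testis forms described above.

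Sensory and cuticle families had few genes listed. Of 60 odorant receptor genes 1 passed, and it was high: Or88a had 65.8 and 57.2 FPKM in a locus that overlaps no other gene, while Or19b had 1.61 and 0.906 FPKM. Of 59 gustatory receptors 4 passed, with Gr94a at 4.26 and 3.95 FPKM in a locus that overlaps that of p53 and Gr59f at 2.68 and 3.09 FPKM. Of 63 ionotropic receptors 4 passed, with Ir21a at 5.62 and 5.27 FPKM and Ir62a at 2.50 and 2.56 FPKM. Apart from Or88a, no gene of these 3 receptor families exceeded a mean of 5.44 FPKM. Of 94 cuticle protein genes 5 passed, led by Cpr51A at 9.55 and 9.39 FPKM and Cpr50Cb at 3.25 and 5.71 FPKM. Of 50 odorant-binding protein genes 8 passed, with Obp99a, at 81.8 and 82.2 FPKM, next to Obp44a. Among the gap junction innexins 4 of 7 passed, with Inx2 at 21.4 and 21.2 FPKM. Of 9 nicotinic receptor subunit genes 2 passed, nAChRbeta3 at 3.92 and 3.79 FPKM and nAChRbeta2 at 2.0 and 3.01 FPKM.

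Of 85 cytochrome P450 genes 42 (49.4%) passed, a share near that of all genes, and Cyp6d5 was the highest at 259 and 278 FPKM, before Cyp4p1 at 36.1 and 34.9 FPKM. Of 35 glutathione transferase genes 27 (77.1%, against 57.3% of all genes) passed, with GstD1 at 595 and 682 FPKM next to GstS1. Of 46 seminal fluid genes 12 reached 1 FPKM in replicate 1 and 36 in replicate 2, in the same direction as the accessory gland list with which this family shares members. All 88 microRNA genes were listed at 0, and 27 of 297 transfer RNA genes and 101 of 246 small nucleolar RNA genes passed. All of these microRNA and transfer RNA loci, and 244 of the small nucleolar RNA loci, span under 200 bp. The libraries were also selected with oligo-dT, and the part of length or selection in these counts was not tested.

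The share of genes listed differed between chromosomes. Of 2113 protein-coding genes of at least 200 bp on X, 66.4% passed, against 58.5% of 11049 on 2L, 2R, 3L and 3R together and 72.5% of the 80 on chromosome 4. At higher thresholds X and these autosomal arms were closer: 39.8% of genes on X and 39.7% on the 4 arms reached 10 FPKM in both libraries, and 3.79% and 4.71% reached 100 FPKM. Among genes that passed, the median level ran the other way for X, with 14.6 FPKM on X, against 18.7 FPKM on the 4 large autosomal arms and 27.4 FPKM on chromosome 4. The autosomal arms ranged between 56.8% on 3L and 60.02% on 2L, and in both libraries the share on X was above that of each of these arms. Genes are not independent replicates, and no test was made of these shares.

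**Figure D5:**
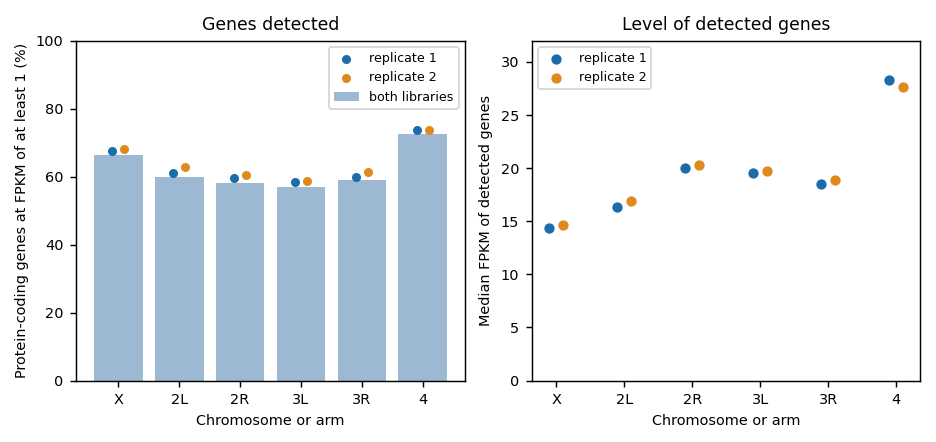
Left, percent of protein-coding genes of at least 200 bp at 1 FPKM or more, as bars for both libraries together and points for each library, by chromosome or arm. Right, median FPKM of the genes that passed, by library; X has the higher share of genes listed (66.4%) and the lower median (14.6 FPKM) beside the 4 large autosomal arms, and chromosome 4 has the highest of both.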

How the data were processed

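RNA from bam mutant testes was measured in 2 libraries, bam replicates 1 and 2. Per the file headers, the tables the authors deposited give each of 14664 genes an FPKM, the bounds of an interval around it and a status. TopHat2, Cufflinks, Cuffdiff and the build dm3 are named in the submitters' processing notes without versions or roles; which annotation, strand setting and kind of interval were used is not given there. In 13.1% and 15.0% of genes the FPKM fell outside the interval given with it, so bounds were not used as errors. Status was not OK for 60 and 62 genes, which were kept.

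Tables were joined on gene identifier with Python 3.11.15, pandas 2.3.3 and numpy 2.4.6, and plots were drawn with matplotlib 3.10.9. A gene passed at an FPKM of at least 1 in both libraries. Paralogue ratios used log2(FPKM + 1), which understates ratios of low genes. A current symbol was found by identifier for 13335 genes; 1329 kept that of the tables. Of 478 list symbols 462 had values, and 16 are not analysed here. Positions follow the tables, in dm3 and 1-based. With 1 group there are no tests between groups and no p-values.

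The members and lists were chosen with earlier results of these data known. The rule for named genes took the 25 most abundant genes of at least 200 bp, the 10 highest of any length, the 4 highest and all defining members of each list, the 2 highest genes of each family and, among loci of at least 200 bp, the 5 highest genes listed at 0 in 1 library and the 5 widest gaps between libraries; paralogue pairs could be named. Most scaffold U loci and some tubule genes are given as ranges, and the leading members of the Mst, dynein, small RNA and long non-coding RNA families outside the lists are not named. Any other gene was picked with its values in view. Alternatives were thresholds of 0.5, 2 and 5, a mean in place of both libraries, rescaling, gene filters, each library left out, pseudocounts of 0.1 and 0.5, other numbers of top genes and, added after seeing the data, the interval midpoint and leaving out scaffold U.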

Additional observations from a re-analysis of the deposited data

How the results depend on the processing

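No paired analysis was possible because 1 group is described and no result comes from a test. At a threshold of 5 FPKM, 31 later germline genes and 34 genes of neighbouring tissues passed, fewer than the 53 and 59 at 1 FPKM by construction. The 28.3% of summed FPKM held by the top 25 genes became 29.2% with loci of at least 200 bp and values above 0, 25.5% with protein-coding genes, 20.8% with interval midpoints and 24.6% without scaffold U; the top 10 genes held 19.4% and the top 50 held 36.5%. The median paralogue log2 ratio was -4.76 with a pseudocount of 0.1 and -4.06 with 0.5. With each library left out in turn, the top 25 held 28.0% to 28.7%, 8650 to 8763 genes passed, as did 80 to 81 early germline, 54 later germline, 68 to 69 somatic gonad and 66 to 73 neighbouring tissue genes, and the paralogue median was -3.69 to -3.65. Of single lists, the accessory gland list had 16 genes without replicate 1 and 5 without replicate 2, and the gut list had 7 without replicate 2 against 4 in both. A threshold of 5 FPKM moved the counts of 11 of 29 lists by more than 1.5 times, 0.5 FPKM moved 4 and 2 FPKM moved 3. With 2 libraries, depth unknown and 34.6% of loci overlapping another, single values of low, short or nested genes are uncertain.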

Other observations

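Stellate, a tandem gene family of X that Y-linked Suppressor of Stellate repeats are known to silence in male germ cells through piRNAs, was low in both libraries. None of its 14 listed genes passed in both, with medians of 0.0893 FPKM in replicate 1 and 0.0339 FPKM in replicate 2, and the highest, SteXh:CG42398 on scaffold U, had 1.58 and 0.630 FPKM. All 42 Suppressor of Stellate repeats passed, with medians of 5.04 and 4.08 FPKM and a range of 1.20 to 28.9 FPKM. These are near-identical copies, so the level of a single copy is uncertain. This family was picked with its values in view.

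On the Y chromosome scaffold of dm3, 1 of 7 protein-coding genes passed. CG41503 had 128 and 126 FPKM, above its interval, and the other 6, which are fertility genes, had values of 0.0946 FPKM or less. Of 7 pseudogenes on that scaffold 5 passed, with a highest value of 4.48 FPKM.

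Several nested loci had 1 partner listed at 0 in both libraries. The inner gene was the one at 0 for squ within grp and mei-W68 within par-1, and the outer gene was the one at 0 for eIF4G2 within CG33111, elav within arg and rhi within CG10936. These pairs were chosen after their values were seen, and their cause was not tested.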
